A study of Homo sapiens with 4 samples.

Results

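The genes described here are 10 components of endoplasmic reticulum (ER) protein folding and of the unfolded protein response: HSPA5, HSP90B1, XBP1, HERPUD1, PDIA4, PDIA6, CALR, CANX, SDF2L1 and HYOU1. They were found by symbol among the 62700 gene identifiers of the count tables, and all 10 were present and passed the filter on low counts. RNA-seq of poly(A) RNA compared HEK293T cells, a human embryonic kidney line, expressing an RPB1 construct whose C-terminal domain (CTD) repeats were wild type (WT, 2 libraries) or carried alanine in place of threonine 4 in each repeat (T4A, 2 libraries). RPB1 is the largest subunit of RNA polymerase II, and the constructs, EYFP-tagged according to the study's methods, resist α-amanitin, which destroys the endogenous protein. In both groups the construct was introduced by transient transfection, α-amanitin at 2.5 µg/ml was given from day 1 after transfection, and it stayed on the cells for 48 h, so WT cells also carry a construct and the toxin. Each library came from a mixed cell population, the share of cells carrying the construct was not given in the sources used here, and the labels do not say whether the 2 libraries of a group came from separate cultures. A p-value here is therefore set against the spread of these 4 libraries, part or all of which may be technical, and fewer cells of one kind cannot be told apart from less RNA per cell.

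Secreted and membrane proteins fold in the ER with the help of HSP70-type and HSP90-type chaperones, of calnexin and calreticulin, which hold proteins by their sugar chains, and of protein disulfide isomerases. When unfolded proteins accumulate, the sensors IRE1 (encoded by ERN1), PERK (EIF2AK3) and ATF6 start the unfolded protein response: IRE1 splices XBP1 mRNA, ATF6 is cut by Golgi proteases to release a transcription factor, and PERK slows translation while favouring ATF4. ATF6 and spliced XBP1 act through ER stress response elements in the promoters of chaperone genes. Gene counts do not separate spliced from unspliced XBP1 mRNA, and protein levels and sensor activity are not measured by RNA-seq.

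The libraries held 19257217 to 33063535 fragments assigned to genes, and 25696 to 28520 genes had at least 1 count. Levels are given in CPM, the counts of a gene per 1000000 counts of its library after TMM scaling, a correction for library composition. POLR2A, which encodes RPB1, stood at 5378 and 5477 CPM in T4A and at 3772 and 2764 CPM in WT. POLR2A was higher in T4A by 0.73 ± 0.08 (log2, SE; edgeR adjusted p = 7.23e-07), and the counts do not separate the construct from the endogenous gene. The size of this difference depended on the WT library used. It rose to 0.98 once the library at 3772 CPM was dropped and fell to 0.52 once the one at 2764 CPM was dropped. A second test, DESeq2, gave 0.75 with a wider SE of 0.23 (adjusted p = 0.00535). The summed level of 8 markers of the HEK293T line was 461 to 486 CPM in the 4 libraries, with 7 of the 8 at 1 CPM or more. VIM, at 233 to 276 CPM, and NEFL, at 112 to 128 CPM, made up most of this sum. PAX2 was at 2.42 to 4.44 CPM, and LHX1 had at most 2 counts in a library. The summed markers of other cell types were lower over the 4 libraries. They were at most 0.2 CPM for endothelial, 1.16 to 3.46 for hepatocyte and 11.6 to 18.7 for haematopoietic lists. The secretory list summed to 11.8 to 13.8 CPM and the fibroblast list to 34.8 to 41.7. SDC1, at 11.8 to 13.7 CPM, made up nearly all of the secretory sum. JCHAIN and MZB1 of that list had at most 3 counts in a library, and CPA1, PRSS1 and INS were at 0 in every library.

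The promoters of these genes are known for ER stress response elements, so the windows from 250 bases before to 50 bases after each RefSeq transcription start (GRCh38.p14) were searched on both strands. The element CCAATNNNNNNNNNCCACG (ERSE) occurred in 27 of 35116 human windows, or 0.0769%, and in 6 of the 10 genes: HSPA5, HSP90B1, XBP1, PDIA6, CALR and CANX. The related element ATTGGNCCACG (ERSE-II) occurred in 19 windows, or 0.0541%, and in 3 of the 10: HERPUD1, SDF2L1 and HYOU1. Either element was thus present in 9 of the 10 genes, PDIA4 being the exception, against 44 of 27305 genes with a window, or 0.161%, these 9 among them. Because these promoters were already known for the elements, this contrast is a description and not a test. The number of windows searched also differed between genes, with 4 for CANX and 1 for HSPA5. Only exact matches to these letters were counted, so the lack of one in PDIA4 does not show that its promoter lacks an element. The sites of HSPA5, the 3 genes that were higher in T4A and the 2 that were lower are shown with 20 bases on either side, 5′ to 3′ on the gene's strand, with the element in capitals.
HSPA5 (chr9:125241371-125241429, minus strand): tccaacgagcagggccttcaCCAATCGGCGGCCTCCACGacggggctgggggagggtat
XBP1 (chr22:28800583-28800641, minus strand): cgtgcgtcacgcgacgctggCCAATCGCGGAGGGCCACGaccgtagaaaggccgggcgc
HERPUD1 (chr16:56932005-56932055, plus strand): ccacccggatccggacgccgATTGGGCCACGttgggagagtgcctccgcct
SDF2L1 (chr22:21642094-21642144, plus strand): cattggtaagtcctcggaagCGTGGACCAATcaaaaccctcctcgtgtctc
CANX (chr5:179698758-179698816, plus strand): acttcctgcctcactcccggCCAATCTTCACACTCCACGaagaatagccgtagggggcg
HYOU1 (chr11:119057360-119057410, minus strand): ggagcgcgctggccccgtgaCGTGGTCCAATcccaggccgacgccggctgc

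In SDF2L1 and HYOU1 the element lies on the opposite strand and is printed as its reverse complement. These 6 stretches lie upstream of the start used by the RefSeq window and outside its transcript. The CANX start at base 179698929 is inside the annotated gene rather than at its outer end. The same holds for the PDIA6 start beside its match, at base 10812785. HYOU1 held a second ERSE-II nearer its start, and its distal site overlapped the motif TGACGTGG (UPRE), which 0.729% of windows held. HSP90B1 held a pair of ERSE matches, 1 on each strand. HERPUD1 also held TGATGNAA (CARE), a motif bound by ATF4-containing dimers and present in 3.62% of windows. A match describes the letters of a promoter and does not show that a factor was bound in these cells.

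Of the 10 genes, XBP1, HERPUD1 and SDF2L1 were higher in T4A, CANX and HYOU1 were lower, and HSPA5, HSP90B1, PDIA4, PDIA6 and CALR did not pass the test (edgeR quasi-likelihood test, Benjamini-Hochberg adjusted p under 0.05 over 18139 genes). The genes called higher were 3 of 10, where 10.7% of all tested genes were. Those called lower were 2 of 10, where 13.0% were, so 5 of 10 stood against 23.6% called in either direction. The 10 genes were chosen with earlier results of these data known, and the background was not matched for count level. This contrast is therefore a description and not a test. Of all calls in the series 45.1% were higher in T4A, against 61.0% with upper-quartile scaling and 31.2% with library totals alone, so small fold changes depend on the scaling. Both T4A libraries were above both WT libraries for 7 of the genes, an order seen in 28.5% of tested genes, and below for the other 3, an order seen in 30.5%. The median log2 fold change of the 10 genes was 0.10, against −0.01 over all tested genes. With 2 libraries a group an exact permutation test of a single gene cannot give a p below 0.333, so each call rests on the spread estimated across all genes.

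**Figure D1:**
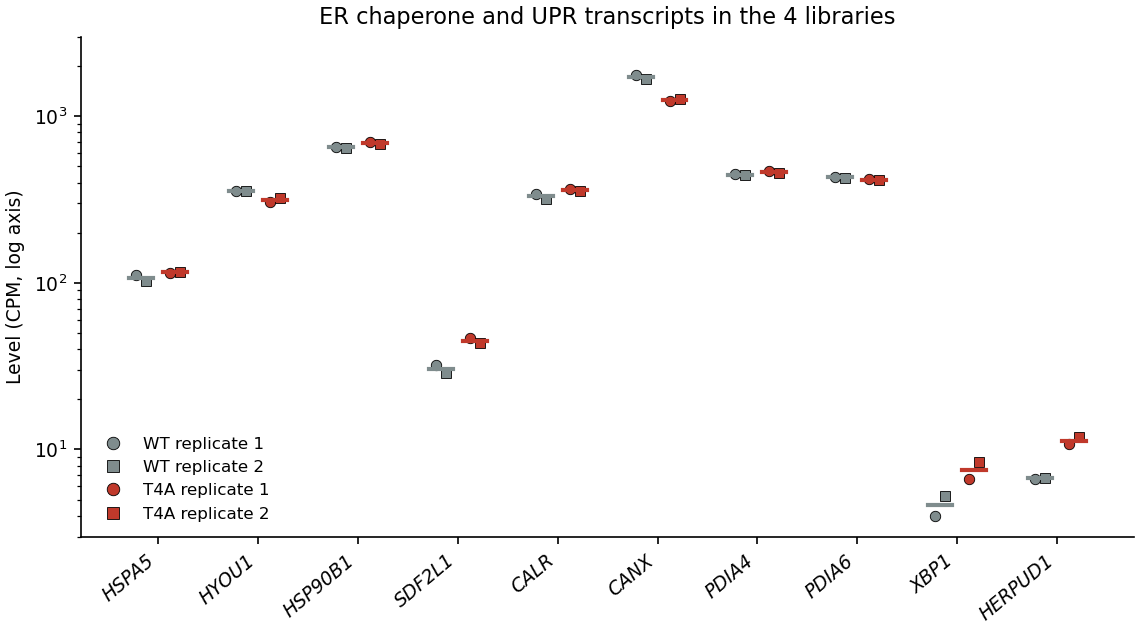
TMM-scaled CPM (vertical log axis) of the 10 genes in the 2 T4A (red) and 2 WT (grey) libraries, with 1 point per library and a horizontal bar at each group's mean. The T4A points of XBP1, HERPUD1 and SDF2L1 lie above both WT points, those of CANX and HYOU1 lie below, and the groups of the other genes lie close together.

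HERPUD1 (chr16:56932142-56944864, GRCh38 for all positions) encodes a membrane protein that organises the ubiquitin ligase of ER-associated degradation. It stood at 10.7 and 11.9 CPM in T4A, from 243 and 223 counts, and at 6.68 and 6.75 CPM in WT, from 224 and 173 counts. The WT libraries were nearly equal and both T4A libraries lay well above them. The difference was 0.75 ± 0.17 (log2, SE; 95% interval 0.39 to 1.10; adjusted p = 0.00278, edgeR), or 1.68-fold.

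XBP1 (chr22:28794560-28800569) encodes the transcription factor whose mRNA IRE1 splices. Its levels were 6.65 and 8.35 CPM in T4A and 3.995 and 5.23 CPM in WT, from 134 to 157 counts a library. The T4A libraries were the higher pair, but the gap between the groups was narrower than the gap between the T4A libraries. The difference of 0.70 ± 0.22 (95% interval 0.24 to 1.17; adjusted p = 0.0260, edgeR) corresponded to 1.63-fold. The call rested on single libraries: it was lost without T4A replicate 2 (0.54, adjusted p = 0.111) and without WT replicate 1 (0.52, adjusted p = 0.264).

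SDF2L1 (chr22:21642302-21644299) encodes a small partner of the HSPA5 chaperone complex. It stood at 46.4 and 43.6 CPM in T4A and at 32.3 and 28.6 CPM in WT. The groups were well separated, with 45.0 ± 1.98 CPM (SD, n = 2) against 30.4 ± 2.65 CPM (SD, n = 2). The rise was 0.56 ± 0.09 (95% interval 0.37 to 0.75; adjusted p = 0.000117, edgeR), or 1.48-fold.

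**Figure D2:**
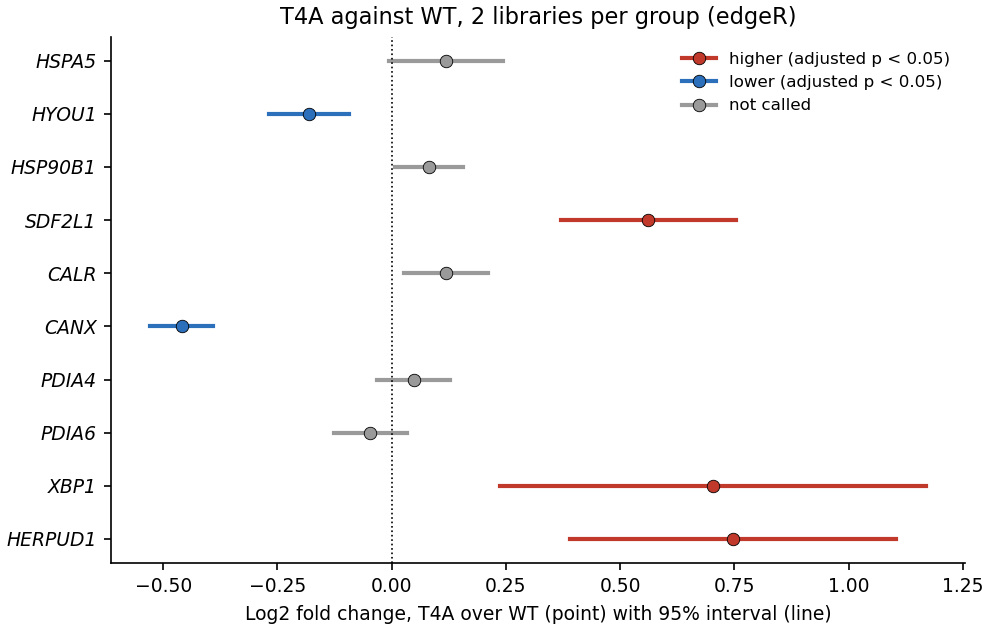
Log2 fold change of T4A over WT (horizontal axis; point) with its 95% interval from the edgeR fit, not adjusted for the number of genes (line), for the 10 genes in order of role. Red marks the 3 genes called higher, blue the 2 called lower and grey the 5 not called, and the intervals of XBP1 and HERPUD1, the genes with the fewest counts, are the widest.

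HSPA5 (BiP, chr9:125234853-125241343), the HSP70 chaperone of the ER lumen that also holds the sensors inactive, showed no such separation. It stood at 115 and 117 CPM in T4A and at 111 and 102 CPM in WT. The T4A libraries were slightly above both WT libraries, and the WT libraries differed from each other by more than the gap between the groups. The fold change was 0.12 ± 0.06 with an interval from −0.01 to 0.24 (adjusted p = 0.172, edgeR). That interval leaves out the point values of HERPUD1, XBP1 and SDF2L1. Its upper end, 0.243, nevertheless lies above the lower end of the XBP1 interval, 0.238. With the trend on canonical transcript length removed, HSPA5 stood at 0.23 ± 0.06 and SDF2L1 at 0.31 ± 0.09, which were close.

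HSP90B1 (GRP94, chr12:103930410-103947926), the HSP90 of the ER, had 698 and 677 CPM in T4A against 657 and 642 CPM in WT. The libraries of the groups did not overlap, yet the T4A libraries differed from each other by about as much as the gap between the groups. The fold change was 0.08 ± 0.04 (interval 0.01 to 0.16; adjusted p = 0.109, edgeR). HSP90B1 shares 805 exonic bases with UQCC6 on the opposite strand, and fragments there cannot be told apart in counts made without strand.

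HYOU1 (GRP170, chr11:119044188-119057205), a large HSP70 relative that acts as nucleotide exchange factor for HSPA5, moved the other way. Its levels were 307 and 323 CPM in T4A and 356 and 358 CPM in WT. The WT libraries were nearly equal and lay above both T4A libraries. HYOU1 fell by 0.18 ± 0.04 on the log2 scale (interval −0.27 to −0.09; adjusted p = 0.0031, edgeR), a level 1.13-fold higher in WT. The call was lost with upper-quartile scaling (−0.10) and once the trend of fold change with transcript length was removed (−0.014). The summed level of HSPA5, HYOU1 and HSP90B1 was between 1103 and 1124 CPM in all 4 libraries, with the groups overlapping.

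Of the sugar-binding chaperones, CANX was lower and CALR was not called. CANX (calnexin, chr5:179678656-179731641), the membrane-bound one, stood at 1236 and 1266 CPM in T4A and at 1771 and 1668 CPM in WT. Both WT libraries were far above both T4A libraries relative to the spread within each group. CANX fell by 0.46 ± 0.03 on the log2 scale (interval −0.53 to −0.39; adjusted p = 5.46e-09, edgeR), so that WT was 1.37-fold higher, and it ranked 73 among all tested genes by p-value.

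CALR (calreticulin, chr19:12938609-12944489), its soluble relative, had 364 and 356 CPM in T4A and 344 and 319 CPM in WT. Both T4A libraries were above both WT libraries, by a gap smaller than that between the WT libraries. The fold change was 0.12 ± 0.04 (interval 0.03 to 0.21; adjusted p = 0.0564, edgeR), just outside the threshold. It was 0.18 (adjusted p = 0.00772) without WT replicate 1 and 0.067 (adjusted p = 0.454) without WT replicate 2, and −0.0059 (adjusted p = 0.957) with the trend on canonical transcript length removed. The ratio of CALR to CANX per kilobase of transcript was 0.762 and 0.727 in T4A and 0.502 and 0.495 in WT. The T4A libraries thus held more CALR mRNA for each CANX mRNA. These ratios were not adjusted for the trend of fold change with length, and CANX fell less, by 0.27, with the canonical trend removed. CANX made up 33.7% and 34.5% of the summed CPM of the 10 genes in T4A and 42.5% and 41.7% in WT. That sum was 0.367% of the scaled library in both T4A libraries and 0.416% and 0.400% in WT.

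The protein disulfide isomerases, which form and rearrange disulfide bonds, showed the smallest fold changes of the 10. PDIA4 (ERp72, chr7:149003051-149028505) stood at 467 and 454 CPM in T4A and at 449 and 442 CPM in WT. PDIA6 (chr2:10783391-10837712), which also binds HSPA5 and dampens IRE1 and PERK signalling, stood at 419.6 and 414 CPM in T4A and at 432 and 429 CPM in WT. The T4A libraries were the higher pair for PDIA4 and the lower pair for PDIA6, each by a small margin, and the directions of both turned under some settings (PDIA4 −0.030 with library totals alone, PDIA6 0.037 with upper-quartile scaling). The fold changes were 0.05 ± 0.04 for PDIA4 (interval −0.03 to 0.13; adjusted p = 0.425) and −0.05 ± 0.04 for PDIA6 (interval −0.13 to 0.03; adjusted p = 0.435, edgeR for both). PDIA6 shares 1033 exonic bases with ATP6V1C2 on the opposite strand.

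To compare levels between genes, CPM was divided by the length of the canonical transcript in kilobases. In WT the order of these levels per kilobase was CANX (349.9), HSP90B1 (234), PDIA6 (189), CALR (174), PDIA4 (161), HYOU1 (77.6), SDF2L1 (36.9), HSPA5 (27.2), XBP1 (2.58) and HERPUD1 (2.35), as means of 2 libraries. The ranges of XBP1 and HERPUD1 met, and no other neighbours did. In T4A the order was the same except that CALR (189) stood above PDIA6 (183). CANX (254) and HSP90B1 (247), far apart in WT, were close in T4A. The level of HSP90B1 per HSPA5 was 8.55 and 8.18 in T4A and 8.35 and 8.84 in WT, which overlapped. SDF2L1 stood at 54.5 per kilobase in T4A, against 29.5 for HSPA5.

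Transcript length moved with the fold changes across the whole series, and its part in the calls for these genes was not tested beyond removing the trend. Among all tested genes the 25% with the shortest canonical transcripts, up to 1512 bases, had a median log2 fold change of 0.26. The 25% with the longest, from 4663 bases, had −0.31. SDF2L1 has the shortest canonical transcript of the 10 genes, with 825 bases, and CANX and HYOU1 the longest, with 4915 and 4599 bases. HERPUD1 (2853 bases), HSP90B1 (2782 bases) and PDIA4 (2767 bases) have nearly equal canonical lengths, and their fold changes were 0.75, 0.08 and 0.05. Their exonic lengths differ, at 5062, 13092 and 3298 bases, and with the exonic trend removed the values were 0.78, 0.35 and −0.034.

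With the trend on canonical transcript length removed, HERPUD1 stood at 0.74 (adjusted p = 0.00572), SDF2L1 at 0.31 (adjusted p = 0.0272) and CANX at −0.27 (adjusted p = 1.46e-05, edgeR). These 3 calls were thus kept, with smaller values for SDF2L1 and CANX, and they were also kept with the trend on exonic length removed (0.78, 0.34 and −0.18). XBP1 stood at 0.57 (adjusted p = 0.105) and HYOU1 at −0.014 (adjusted p = 0.880), and both calls were lost, as they were with the exonic trend removed (0.60 and −0.060). HSPA5, at 0.23 (adjusted p = 0.0139), and PDIA6, at −0.12 (adjusted p = 0.0363), passed the threshold in this fit, and HSPA5 did so in 3 and PDIA6 in 2 of the 14 alternative settings in all.

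**Figure D3:**
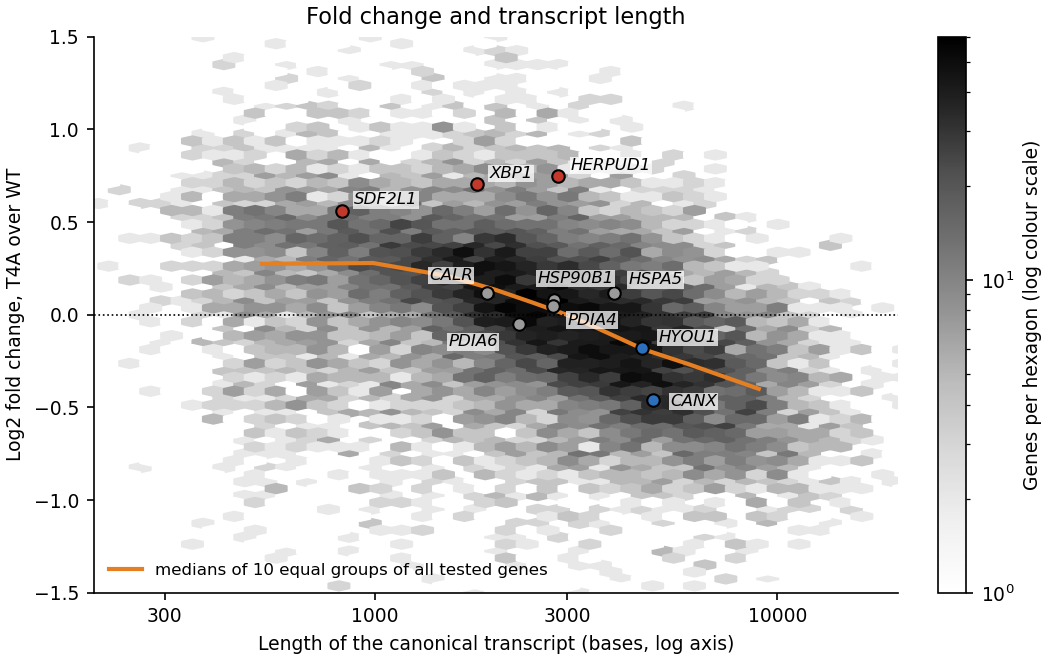
Log2 fold change of T4A over WT (vertical axis) against the length of the canonical transcript in bases (log axis) for all tested genes (hexagons, shaded by the number of genes) and the 10 named genes (red higher, blue lower, grey not called). The orange line, which joins the medians of 10 equal groups of genes, falls with length, HYOU1 lies on it, and HERPUD1 and XBP1 lie far above it.

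The rest of the pathway was described through 134 genes of ER folding and stress signalling in lists by role. Of these 130 were tested, 35 were higher and 37 lower in T4A, 58 were not called, and their median log2 fold change was −0.00, close to that of all genes. The shares called were 26.9% higher and 28.5% lower, against 10.7% and 13.0% of all tested genes. These all-gene shares are the background of each list that follows. That background was not matched for count level, and with the 1 CPM filter 2071 of 14647 genes were higher and 2358 lower. The lists were chosen with earlier results of these data known, so an excess over the background is a description and not a test. The lists share no gene with the 10 above. Among the sensors, their proteases and the factors downstream, 2 of 7 were higher and 3 lower, with a median of −0.32. ATF4, the transcription factor translated when PERK is active, stood at 182 and 191 CPM in T4A against 149.6 and 139 CPM in WT. The T4A libraries were the higher pair, and ATF4 rose by 0.37 ± 0.05 (adjusted p = 3.32e-05, edgeR). DDIT3 (CHOP), a target of ATF4, stood at 4.98 and 3.67 CPM in T4A against 2.27 and 1.99 CPM in WT. It rose by 1.02 ± 0.30 (adjusted p = 0.0159, edgeR) at these low levels, and the call was lost without T4A replicate 1 (0.78) or WT replicate 2 (0.93).

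The mRNAs of the sensors and of their proteases were lower in T4A or not called. ERN1 stood at 6.08 and 7.50 CPM in T4A against 10.6 and 10.2 CPM in WT, and it fell by 0.62 ± 0.18 on the log2 scale (adjusted p = 0.0153, edgeR). The ERN1 call was lost without T4A replicate 1 (−0.47, adjusted p = 0.0663), WT replicate 1 (−0.58, adjusted p = 0.132) or WT replicate 2 (−0.65, adjusted p = 0.0656). ATF6 fell by 0.38 ± 0.11 (adjusted p = 0.0156) and MBTPS1, the protease that makes the first cut in ATF6, fell by 0.32 ± 0.06 (adjusted p = 0.000253). The ATF6 call was lost with upper-quartile scaling (−0.29) and without T4A replicate 2 (−0.31, adjusted p = 0.0521) or WT replicate 2 (−0.31, adjusted p = 0.174). Both T4A libraries were below both WT libraries for ERN1, ATF6 and MBTPS1. EIF2AK3, at −0.07, and MBTPS2, at −0.43, were not called. ATF4 was called with either length trend removed, whereas ERN1, ATF6 and DDIT3 were called with neither. MBTPS1 was called with the canonical trend removed (−0.17) and not with the exonic trend removed (−0.10, adjusted p = 0.258).

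Targets of PERK and of the integrated stress response, which PERK shares with other kinases, had the highest median of the lists, 0.49, and 5 of 10 were higher, against 10.7% of all tested genes, and the other 5 not called (edgeR). ATF3, a stress-induced transcription factor, stood at 28.6 and 32.4 CPM in T4A against 15.7 and 15.0 CPM in WT and rose by 0.99 ± 0.11 (adjusted p = 1.17e-06). CEBPB rose by 0.79, PPP1R15A (GADD34), which directs dephosphorylation of eIF2α, by 0.64, and DDIT4 by 0.50. The 5 not called went both ways, with ASNS at −0.75 ± 0.40 and VEGFA at −0.17 ± 0.09 (SE). TRIB3 stood at 0.79 ± 0.31, NUPR1 at 0.42 ± 0.47 and CHAC1 at 0.16 ± 0.47. ASNS, NUPR1 and CHAC1 had only 22 to 79 counts a library, so their directions are uncertain. With the length trend removed 5 of the 10 were higher on canonical length (median 0.56) and 4 on exonic length (median 0.45). DDIT4, which has no canonical length here and so was not adjusted for it, lost its call in the exonic fit (0.33, adjusted p = 0.0815) and without T4A replicate 1 (0.38, adjusted p = 0.0566) or WT replicate 1 (0.38, adjusted p = 0.113). These genes answer to other stresses as well, and the counts do not tell PERK from the other kinases.

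**Figure D4:**
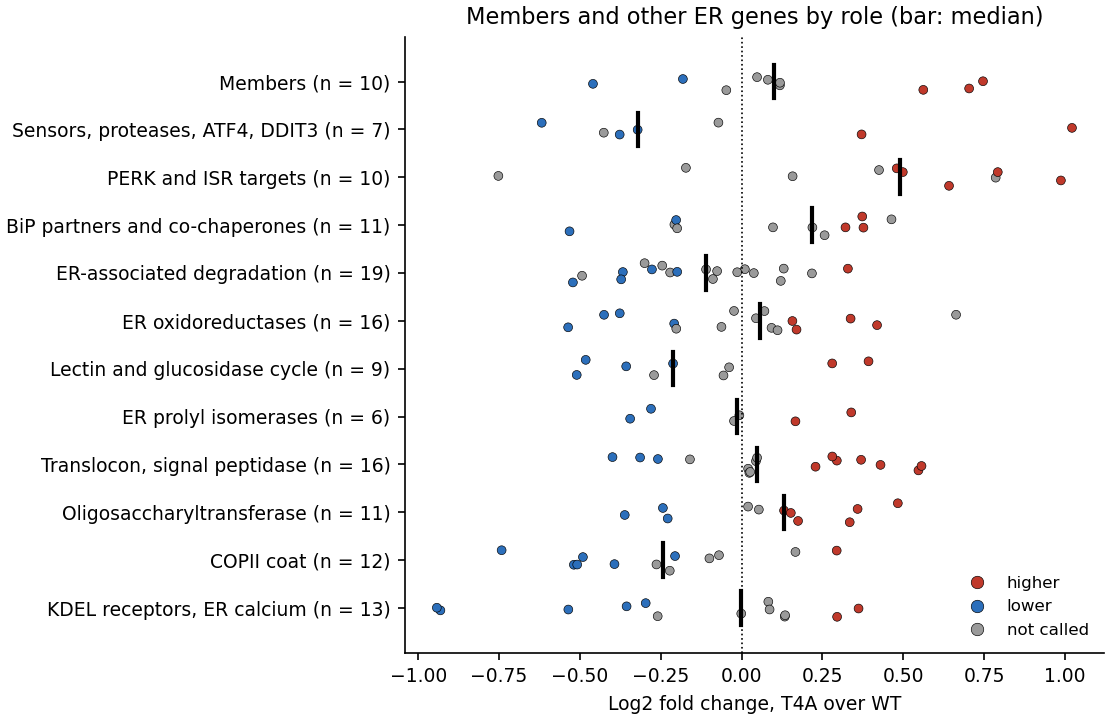
Log2 fold change of T4A over WT (horizontal axis) for each tested gene of the 10 described here and of 11 lists of other ER genes (red higher, blue lower, grey not called), with a black bar at each median. The PERK and integrated stress response targets have the highest median, 0.49, and most other lists spread to both sides of 0.

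Partners of HSPA5 gave 3 higher and 2 lower of 11. MANF, a secreted ER stress protein, rose by 0.37 and CRELD2, an ER stress-induced isomerase, by 0.32, while DNAJC10 fell by 0.53 and SEC63 by 0.20. With the canonical length trend removed these 4 were no longer called. With the exonic trend removed CRELD2 kept its call (0.36, adjusted p = 0.000107) and the other 3 did not. DNAJC10 stood at 0.089 in the canonical and −0.14 in the exonic fit, and SEC63 at 0.079 and −0.021. MANF (0.29, adjusted p = 0.109) and SEC63 (−0.18, adjusted p = 0.0604) also lost their calls without WT replicate 2, and SEC63 with upper-quartile scaling (−0.12). For ER-associated degradation, the process HERPUD1 serves, 1 of 19 was higher and 5 were lower, and 1 was higher and 1 lower with the canonical length trend removed (3 and 1 with the exonic). EDEM3 fell by 0.52 and EDEM1, a lectin that hands misfolded glycoproteins to this pathway, by 0.37. Both calls were lost with either length trend removed (EDEM3 −0.22 and EDEM1 −0.10 on canonical length) and without WT replicate 2 (−0.47 and −0.23), and EDEM1 was also not called by DESeq2 (adjusted p = 0.0713), with upper-quartile scaling (−0.28) or without T4A replicate 2 (−0.30).

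Other oxidoreductases, the companions of PDIA4 and PDIA6, gave 4 higher and 4 lower of 16, and 4 and 3 with the canonical length trend removed (5 and 4 with the exonic). PRDX4, a peroxidase that feeds oxidation into the isomerases, rose by 0.42 and ERP29 by 0.34, whereas TMX3 fell by 0.54 and ERO1A, the main oxidase of the isomerases, by 0.38. In the lectin and glucosidase cycle, the companions of CANX and CALR, 2 of 9 were higher and 4 lower, and 2 and 3 with either length trend removed. LMAN2 rose by 0.39 and LMAN1, a cargo receptor, fell by 0.51. Among ER prolyl isomerases 2 of 6 were higher and 2 lower, PPIB rising by 0.34 and FKBP14 falling by 0.34, and 1 of each was left with the canonical length trend removed, where neither PPIB nor FKBP14 was called (2 of each with the exonic). The FKBP14 call was also lost with upper-quartile scaling (−0.26) and without T4A replicate 2 (−0.27) or WT replicate 2 (−0.28).

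Translocon and signal peptidase genes gave 7 higher and 3 lower of 16 (43.8% and 18.8%), and subunits of the oligosaccharyltransferase gave 6 higher and 3 lower of 11 (54.5% and 27.3%), against 10.7% and 13.0% of all tested genes. SSR4 rose by 0.56, SEC61G by 0.55 and TMEM258 by 0.48, and their canonical transcripts are short, with 608, 425 and 578 bases. With the canonical length trend removed, 5 translocon genes were higher and 2 lower (8 and 2 with the exonic), and with either trend removed 1 oligosaccharyltransferase subunit was called in each direction. Genes of the COPII coat, which carries folded cargo out of the ER, gave 1 higher and 6 lower of 12, and 4 were lower with either length trend removed, SEC24C falling by 0.74 and SEC31A by 0.52. KDEL receptors and ER calcium handling gave 2 higher and 5 lower of 13, ITPR2 falling by 0.94 and ITPR3 by 0.54. The balance turned to 3 higher and 2 lower with the canonical length trend removed (4 and 3 with the exonic), and ITPR3 was not called in the canonical fit (−0.15).

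Genes outside the 10 that carry an ERSE or ERSE-II within the promoter window numbered 35, of which 25 were tested. Of these 3 were higher in T4A, or 12%, against 10.7% of all tested genes (edgeR), and 1 was lower, or 4%, against 13.0%. The higher genes were CRELD2 (0.32), NUCB1 (0.33) and RUVBL2 (0.31), and the lower gene was PLS3 (−0.30), named because they were called. The share called higher was near that of all genes, and the median log2 fold change was 0.01. Some of the 25 had means near 1 CPM, where a change is hard to call. Any part of the elements in the fold changes was not tested. Among the 10 genes, those with an ERSE had fold changes of 0.12 (HSPA5), 0.08 (HSP90B1), 0.70 (XBP1), −0.05 (PDIA6), 0.12 (CALR) and −0.46 (CANX). Those with an ERSE-II had 0.75 (HERPUD1), 0.56 (SDF2L1) and −0.18 (HYOU1), and PDIA4, without a match, had 0.05.

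**Figure D5:**
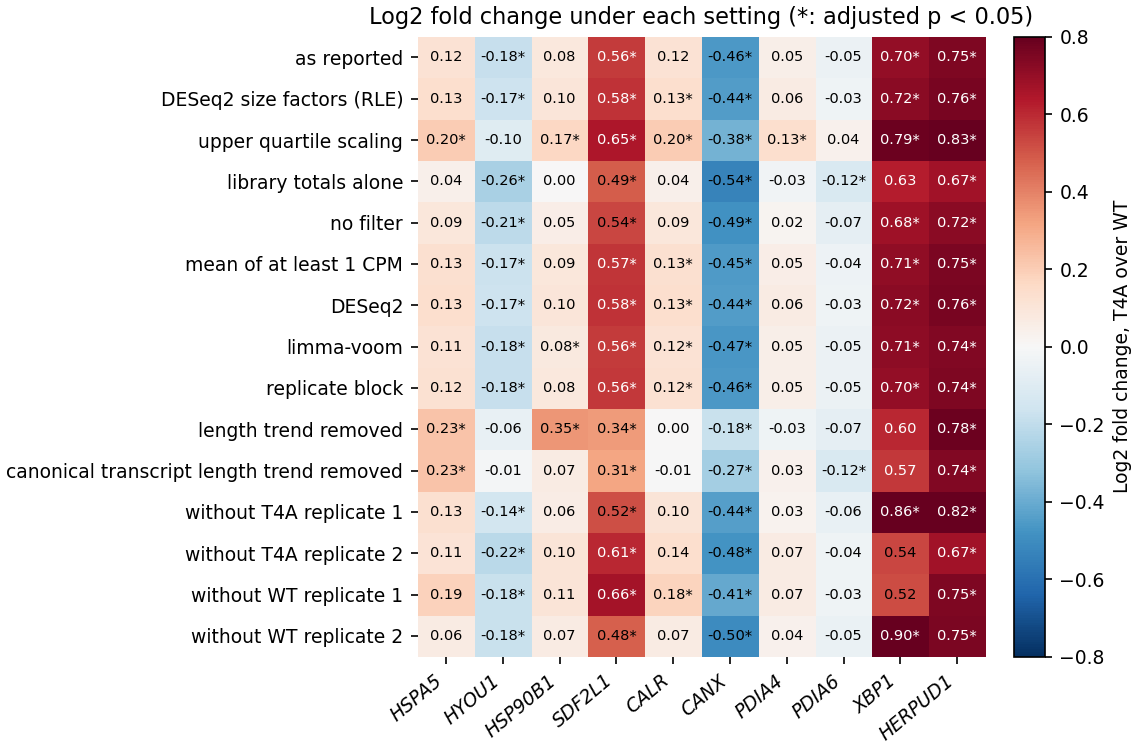
Log2 fold change of T4A over WT for each of the 10 genes (columns) as reported and under 14 alternative settings (rows), written in each cell and coloured from blue (lower) to red (higher), with an asterisk where the adjusted p was under 0.05. HERPUD1, SDF2L1 and CANX carry an asterisk in every setting run, and the values of CALR, PDIA4 and PDIA6 lie on both sides of 0.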

How the data were processed

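Poly(A) RNA of 2 T4A and 2 WT samples was measured by RNA-seq with NEBNext Ultra libraries. The authors deposited raw counts per Ensembl gene, 1 table per sample. Per the submitters' processing notes, Trimmomatic 0.38, HISAT2 2.2.1 and featureCounts 2.0.1 were used with build hg38. The study's methods state alignment without strand. Identifiers were named through GENCODE 44 (60877 of 62700 matched) and positions came from RefSeq GRCh38.

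Counts were tested with edgeR 4.0.16 (R 4.3.3): filterByExpr (18139 genes kept), TMM scaling, quasi-likelihood test of T4A against WT, Benjamini-Hochberg adjustment over all genes kept. SE is the log2 fold change over the square root of F, and 95% intervals used 18.98 degrees of freedom. CPM was computed on TMM-scaled totals. The test was tested on simulated data. The 10 genes were chosen by symbol, and they and the pathway and marker lists were chosen with earlier results of these data known. The named genes were these 10, POLR2A, the sensor list and, of each other list, genes among the 4 with the smallest p-values. NUCB1, RUVBL2, PLS3 and the PERK and integrated stress response targets that were not called were named after their values were seen. Replicates of a group differed by more than sampling noise (chi-square per degree of freedom 4.56 and 5.66). Alternatives were RLE, upper-quartile and total scaling, no filter and a 1 CPM filter, DESeq2 1.42.0, limma-voom 3.58.1, a replicate block, leaving out each replicate, and removal of the trend on exonic length. The trend on canonical transcript length was added after seeing the data. KRTCAP2, ATF6B, FKBP2 and DERL3 did not pass the filter and were not tested.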

Additional observations from a re-analysis of the deposited data

How the results depend on the processing

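Precision was limited by 2 libraries a group and, for XBP1 and HERPUD1, by low counts. HERPUD1 (0.67 to 0.83), SDF2L1 (0.31 to 0.66) and CANX (−0.54 to −0.18) were called in the same direction under all 14 alternatives. The causes of the changes below were not tested. Of the 10 genes, 7 were higher with upper-quartile scaling and 5 with limma-voom, and 2 to 3 when a replicate was left out, while 1 was lower with upper-quartile scaling or with the exonic length trend removed, and 2 when a replicate was left out. All genes lower numbered 1432 with the exonic and 1056 with the canonical length trend removed, and 1576 to 2583 when a replicate was left out (higher, 1424 to 2036). Of the listed ER genes, 23 were higher with the canonical trend removed, and 20 (exonic) and 18 (canonical) were lower. Leaving out a replicate gave 29 to 36 higher and 28 to 37 lower.

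XBP1 lost its call with library totals (0.63), with the exonic (0.60) or canonical (0.57) trend removed and without T4A replicate 2 or WT replicate 1, its value being 0.52 to 0.90 when a replicate was left out. HYOU1 lost its call with upper-quartile scaling (−0.10) and with either trend removed (−0.060 exonic, −0.014 canonical). HSPA5 became called with upper-quartile scaling (0.20) and with either trend removed (0.23 for both). HSP90B1 became called with upper-quartile scaling (0.17), limma-voom (0.081) and the exonic trend removed (0.35). PDIA4 became called with upper-quartile scaling (0.13) and changed sign with totals (−0.030) and the exonic trend removed (−0.034). PDIA6 changed sign with upper-quartile scaling (0.037) and became called with totals (−0.12) and the canonical trend removed (−0.12). CALR became called with RLE scaling (0.13), upper-quartile scaling (0.20), the 1 CPM filter (0.13), DESeq2 (0.13), limma-voom (0.12) and without WT replicate 1 (0.067 to 0.18 when a replicate was left out), and stood at −0.0059 with the canonical trend removed. The deviations of same-numbered replicates had a correlation of −0.0038 over genes. With 2 libraries a group this cannot settle whether the numbers pair the samples. The replicate block added CALR (0.12, adjusted p = 0.0219, edgeR) to the calls among the 10 and gave 2012 higher and 2432 lower genes in all. Of other named genes, EIF2AK3 changed sign with upper-quartile scaling (0.012), with the exonic (0.29) or canonical (0.090) trend removed and without T4A replicate 1 (0.010) or WT replicate 2, its range being −0.32 to 0.22 when a replicate was left out, and DNAJC10 (0.089) and SEC63 (0.079) did so with the canonical trend removed.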
